A study of Mus musculus with 27 samples.

Results

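Mettl14 is the RNA-binding partner of the methyltransferase Mettl3, and the 2 proteins together place N6-methyladenosine (m6A) on messenger RNA. The results here concern 10 of the 27 samples of the series: the RNA-seq libraries of 5 tumors titled Mettl14 knockout and of 5 control tumors, taken as they are named in the count table and described across all genes. All tumors came from CT26, a mouse colon carcinoma line, which received a control, Mettl14 or Mettl3 guide RNA by retrovirus in culture. The cells were then placed in PBS and Matrigel under the skin of the flank of BALB/c mice, which keep their own immune system, so each library mixes RNA of edited cancer cells with RNA of unedited host cells. Per the labels' protocols, mice received 200 µg (10 mg per kg) of antibody against CTLA-4, against PD1 or both, or control IgG, from day 11 to day 23, and the design text places the RNA-seq comparison under anti-PD-1 therapy. The labels do not tie an antibody, an animal, a tumor size or a day of collection to a sample, and neither the age of the mice nor the number of clones behind the edited cells is stated in them. P-values therefore measure only the spread between these samples. The genotype field of the knockout libraries reads Mettl4 and their titles read Mettl14, and the title was followed. The 5 Mettl3 knockout libraries were used only where the knockouts are compared with each other, and the 12 immunoprecipitation and input samples were not used.

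Anti-PD-1 antibody blocks a checkpoint receptor of T cells. T cells and natural killer cells that recognize a tumor release interferon-gamma, which binds its receptor on cancer and host cells and acts through JAK kinases and STAT proteins on genes such as Irf1. These in turn raise guanylate-binding proteins, antigen presentation genes, the checkpoint ligand Cd274 and the chemokines Cxcl9 and Cxcl10, which draw in more T cells. Interferon-stimulated promoters often hold an interferon-stimulated response element (ISRE, bound by STAT and IRF proteins) or a gamma-activated site (GAS, bound by STAT dimers).

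Libraries held 5520340 to 20978633 reads on genes in controls and 6452364 to 17022057 in knockouts. Reads aligned outside genes made up 78.6% of unique alignments in control replicate 1, 44.3% to 53.8% in the other 4 controls and 53.6% to 65.9% in the knockouts. This control library stood apart, so the counts below are given with all 10 libraries and without it. Over all 10 libraries the share outside genes did not separate the groups (exact permutation test, two-sided, p = 0.659, adjusted p = 0.659 over 3 library properties). Without control replicate 1 the knockout mean was 9.62 percentage points above the control mean (exact permutation test, two-sided, p = 0.0238, unadjusted), and whether that bears on the calls made without it was not tested.

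The targeted gene was measured first. Mettl14 (chr3:123368297-123386108, minus strand, mm10) had 66.5, 89.5, 66.4, 61.3 and 61.5 CPM in control replicates 1 to 5, where CPM is the read count scaled by library size, and 58.3, 52.4, 79.6, 48.9 and 67.1 CPM in Mettl14 KO replicates 1 to 5. The groups overlapped, and knockout replicate 3 exceeded 4 of the 5 controls. The log2 fold change was -0.21 (adjusted p = 0.735, SE 0.17) by edgeR's quasi-likelihood test with Benjamini-Hochberg adjustment, and the authors' deposited table lists -0.24 (SE 0.21, adjusted p = 0.654). Guide RNA knockout can leave transcript levels in place, and the tumors also hold unedited host cells, so the level of this transcript neither establishes nor contradicts the label. Mettl4 (chr17:94722590-94750019, minus strand), a separate methyltransferase gene that the genotype field names, had 38.4, 68.4, 59.5, 43.2 and 43.3 CPM in controls and 36.5, 28.1, 35.6, 35.4 and 43.0 CPM in knockouts. Of the knockouts, 4 lay below every control and replicate 5 lay above control replicate 1 only. The log2 fold change was -0.53 (adjusted p = 0.270, SE 0.17), and without control replicate 1 it was -0.58 (adjusted p = 0.0573, SE 0.17). Mettl4 averaged 30.1 CPM in the Mettl3 knockouts, against 35.7 CPM in the Mettl14 knockouts and 50.5 CPM in controls. Between the 2 knockouts the log2 difference was 0.24 by edgeR (SE 0.19, unadjusted p = 0.233, adjusted p = 0.424). The low Mettl4 level was thus not particular to these tumors, and it does not settle the label either. None of the 8 genes of the m6A writer complex had an unadjusted p under 0.05, with a median log2 fold change of -0.20. Among them Mettl3, the catalytic subunit, was at -0.23, Wtap, the adaptor of the complex, at -0.19, and Rbm15, an RNA-binding subunit, at -0.32. Of 14 m6A erasers and readers, 1 was higher at an unadjusted p under 0.05, the reader Igf2bp1 at 0.68. Of 10 other RNA methyltransferases, Mettl4 and Mettl8 were lower at that level.

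No gene passed an adjusted p of 0.05 over the 10 libraries (0 of 21555 tested, 0%, smallest adjusted p 0.130), so no rise or fall is claimed from the 10 libraries. At an unadjusted p under 0.05, 1022 genes were higher in knockouts (4.74%) and 1422 were lower (6.6%), 2444 in all (11.3%). All 5 knockouts exceeded all 5 controls for 146 genes (0.677%) and lay below all 5 for 145 genes (0.673%). Without control replicate 1, 1054 of 21687 genes passed, 621 higher (2.86%) and 433 lower (2%). The counts of each list below stand against these shares of all genes. Without Mettl14 KO replicate 5, 134 were higher (0.614%) and 14 lower (0.0641%), and without control replicate 2, 6 were lower and 0 higher. DESeq2 on all 10 libraries called 203 genes higher (1.27% of those it adjusted) and 68 lower (0.424%), of which 180 of 271 were also among the 1054. The authors' deposited table holds 343 genes higher and 160 lower at an adjusted p under 0.05, of which 257 were also among the 1054. The genes called without control replicate 1 were not spread evenly over abundance. Below 5 CPM, 339 genes were higher and 18 lower, while above 20 CPM 73 were higher and 317 lower, and the median log2 fold change ran from 0.84 at 1 to 2 CPM to -0.27 at 500 CPM and above. With all 10 libraries it ran only from -0.03 to -0.20 over the same bins.

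**Figure D1:**
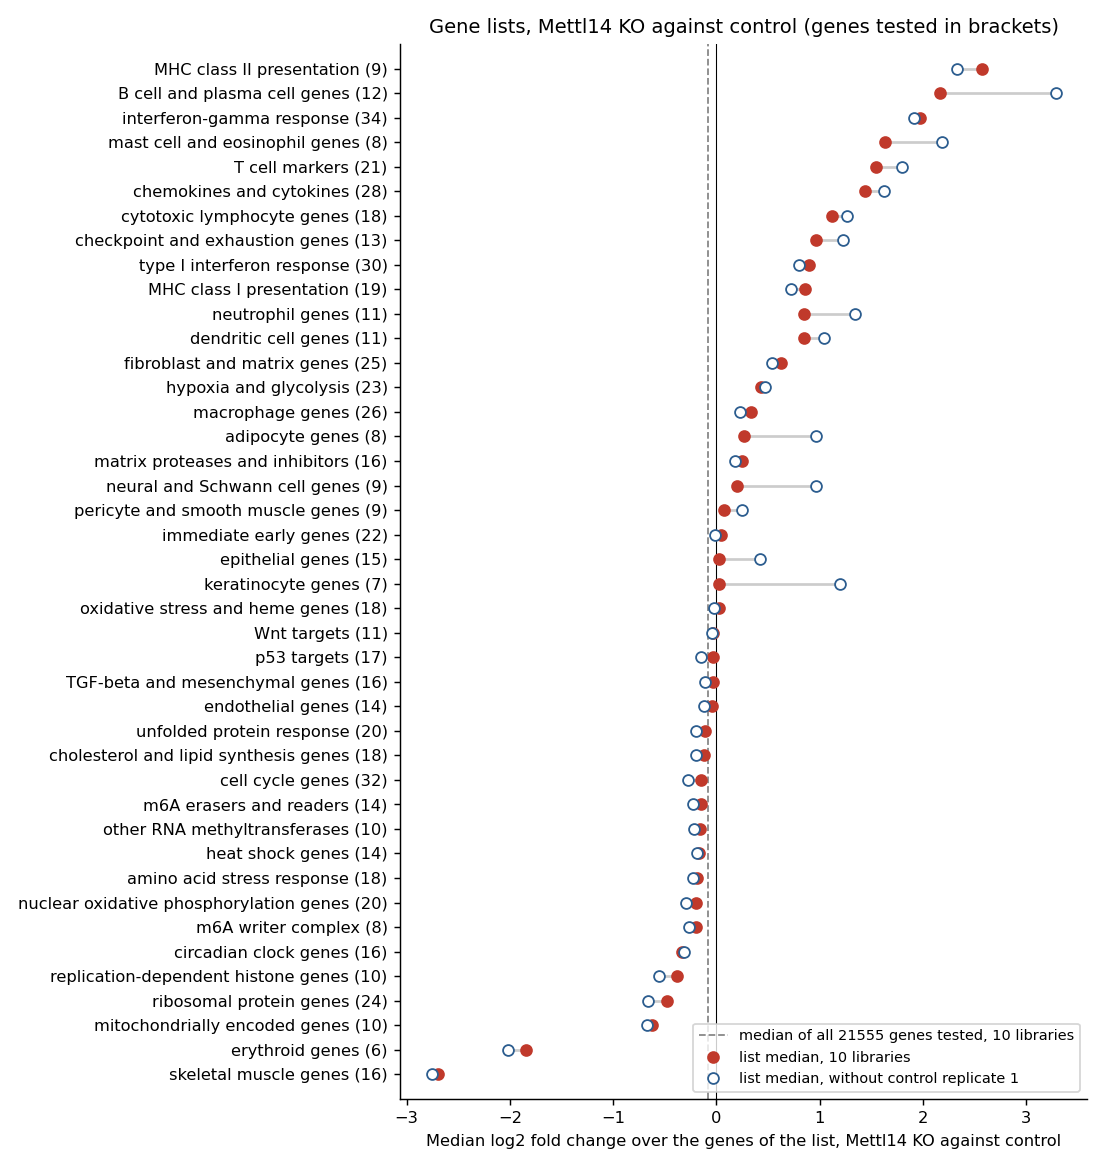
Median log2 fold change of each of 42 gene lists in Mettl14 KO against control tumors (horizontal axis), with the number of genes tested in brackets. Filled points are all 10 libraries (5 per group), open points leave out control replicate 1, and the dashed line marks the median of all 21555 genes. Interferon, chemokine and lymphocyte lists lie to the right and skeletal muscle and erythroid lists to the left in both fits, while lists of low-abundance genes such as keratinocyte genes move with the left-out library.

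Interferon-gamma response genes were measured at higher levels in most knockout tumors. All 34 genes of the list had a positive log2 fold change, with a median of 1.97 against -0.09 for all genes tested, 28 had an unadjusted p under 0.05 in the higher direction, and 0 were lower. Without control replicate 1, 18 of the 34 rose at an adjusted p under 0.05, with a median of 1.91, and the authors' deposited table has 26 higher and 0 lower. In 5 of the 34 genes all knockouts exceeded all controls, against 0.677% of all genes. Knockout replicate 4 was the highest knockout in 31 of the 34 genes and replicate 5 the lowest in 31. Summed over the list, controls had 1079.7, 1585, 1956, 2154 and 1353 CPM in replicates 1 to 5 and knockouts had 6697, 5487, 3567, 8849.6 and 1932 CPM. Knockout replicate 5 thus lay below control replicates 3 and 4, and the other 4 knockouts lay above every control.

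At the receptor, levels were close between the groups. Ifngr1 and Ifngr2, the 2 receptor chains, had log2 fold changes of 0.09 and 0.13, and the kinases Jak1 and Jak2 that sit on them 0.35 and 0.20, all with overlapping groups and an unadjusted p above 0.05. Ifng itself, the ligand, was low, with 1.91, 0.675, 1.08, 0.605 and 0.100 CPM in controls and 2.11, 2.60, 0.924, 5.8 and 0.706 CPM in knockouts. Its log2 fold change came to 1.44 (adjusted p = 0.503, SE 0.75), and the groups overlapped. Without control replicate 1, the highest control for this gene, it was 2.03 (adjusted p = 0.0710, SE 0.67). The authors' deposited table lists 2.17 (SE 0.70, adjusted p = 0.0578), so Ifng missed the threshold in each of these while its value was positive. Socs1 and Socs3, inhibitors that shut the pathway off, were at 0.54 and 0.46 and did not reach an unadjusted p of 0.05.

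The transcription factors lay higher. Irf1 (chr11:53770014-53778374, plus strand), the factor that relays the interferon-gamma signal to its later targets, had 40.7, 52.5, 91.3, 108 and 62.2 CPM in controls and 319, 216, 130.4, 395 and 84.6 CPM in knockouts. Of the 5 knockouts, 4 exceeded every control, and replicate 5 fell within the control range. The log2 fold change was 1.64 (adjusted p = 0.186, SE 0.39), and without control replicate 1 it was 1.52 (adjusted p = 0.0555, SE 0.42), just outside the threshold. Irf1 passed by DESeq2 on all 10 libraries (adjusted p = 0.0138) and in the authors' deposited table (adjusted p = 3.11e-07). Irf8, a factor of myeloid cells and interferon targets, was at 1.16, Ciita, which switches on MHC class II genes, at 2.70, and Nlrc5, which does so for class I genes, at 1.22. None of these 4 passed in the edgeR fit without control replicate 1, with adjusted p from 0.0555 to 0.0694.

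The guanylate-binding proteins, large GTPases that attack the membranes around intracellular pathogens, were high together. All 11 Gbp genes tested had an unadjusted p under 0.05 in the higher direction (median log2 fold change 2.04), and 10 of them rose without control replicate 1. The family was gathered by symbol after its values were seen, and its members lie side by side in clusters on chromosomes 3 and 5 with similar sequences, so reads can be assigned to the wrong copy. Gbp2b (chr3:142594847-142619179, plus strand) had 117, 154, 179, 225 and 69.8 CPM in controls and 962, 979.9, 567, 1496 and 246 CPM in knockouts. Every knockout exceeded every control, the nearest pair being knockout replicate 5 and control replicate 4. Its log2 fold change came to 2.46 (adjusted p = 0.130, SE 0.43), and without control replicate 1 it rose by 2.42 (adjusted p = 0.0406, SE 0.49). Gbp6 (chr5:105270702-105293698, minus strand) had 2.39, 1.64, 2.91, 2.47 and 1.26 CPM against 14.6, 13.3, 7.92, 20.1 and 3.53 CPM. These groups did not overlap either, with a log2 fold change of 2.43 (adjusted p = 0.130, SE 0.42) and, without control replicate 1, 2.51 (adjusted p = 0.0331, SE 0.44). Iigp1 (chr18:60376027-60392634, plus strand), an immunity-related GTPase, had 75.4, 96.1, 139, 129 and 47.4 CPM in controls and 562, 582, 364, 843 and 157 CPM in knockouts. All knockouts were above all controls, and the log2 fold change was 2.31 (adjusted p = 0.130, SE 0.40) with 10 libraries and 2.27 (adjusted p = 0.0406, SE 0.46) without control replicate 1. Apol6 (chr15:77044729-77057106, plus strand) had 8.91, 2.70, 4.91, 7.70 and 2.21 CPM and 68.4, 43.0, 21.3, 64.8 and 12.1 CPM. Its groups did not overlap, and it had the largest log2 fold change of the list, 2.95 (adjusted p = 0.130, SE 0.53), or 3.23 (adjusted p = 0.0375, SE 0.57) without control replicate 1. Cd274, which encodes the PD-1 ligand PD-L1, had 26.4, 23.5, 29.4, 43.5 and 25.6 CPM in controls and 149, 137, 53.9, 217 and 39.4 CPM in knockouts. Only knockout replicate 5 fell among the controls, and its log2 fold change of 1.95 (adjusted p = 0.130, SE 0.40) passed without control replicate 1 (adjusted p = 0.0461).

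**Figure D2:**
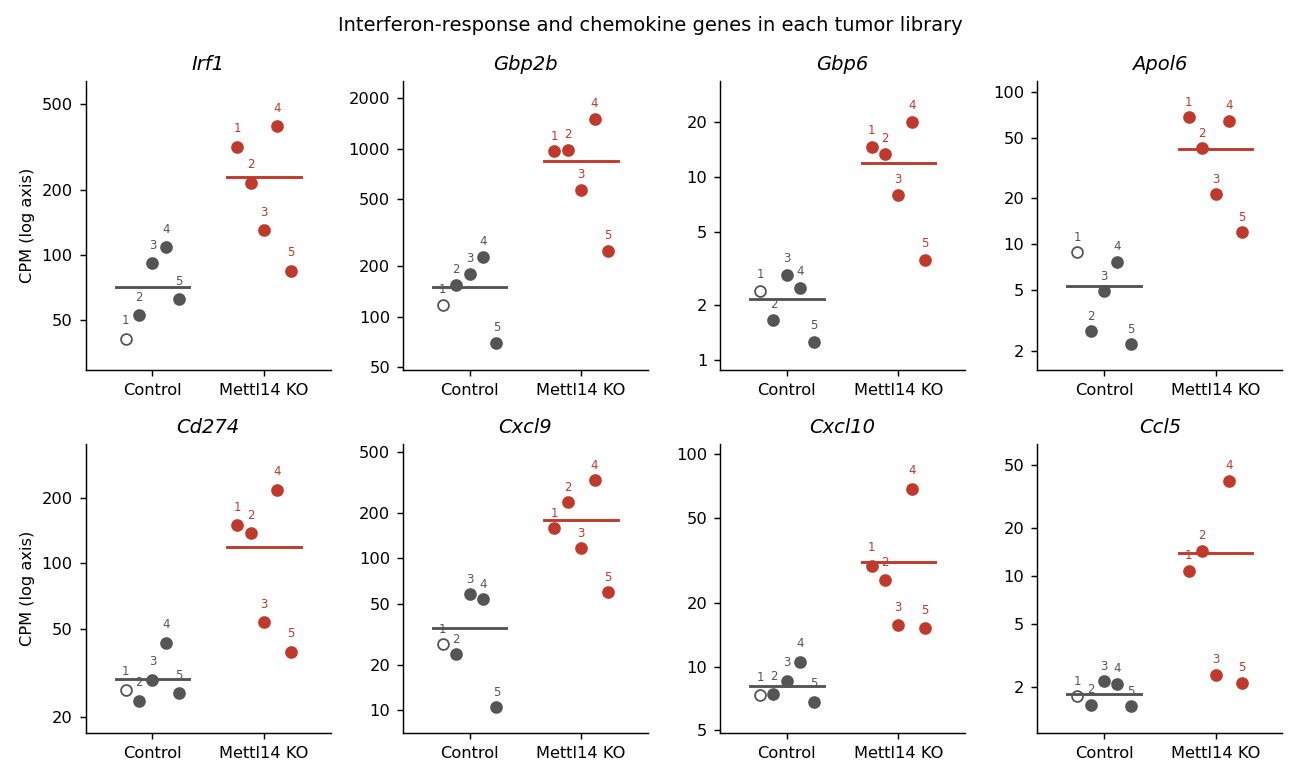
Level of 8 interferon-response and chemokine genes (CPM, log axis) in 5 control and 5 Mettl14 KO tumor libraries. Each numbered point is 1 library, horizontal lines are group means, and the open point is control replicate 1. Knockout replicate 4 is highest in 7 of the 8 panels and replicate 5 is lowest in all 8, where it lies above every control for Gbp2b, Gbp6, Apol6, Cxcl9 and Cxcl10.

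The promoters of these genes were read for the 2 interferon elements, since their genes were high together. In RefSeq promoter windows of build GRCm38.p6, from 250 bases before to 50 after a start site, the ISRE letters (GAAA, any 2 bases, GAAA) on either strand occurred for 3.99% of 27025 genes and TTCNNNGAA (GAS) for 9.55%. The motifs were searched separately, and a window can hold both. Of the 34 interferon-gamma response genes 22 matched a window, and 11 of these (50%) held the ISRE letters and 11 (50%) the GAS letters. For the type I interferon list 23 of 30 genes matched, with 12 ISRE (52.2%) and 6 GAS (26.1%). For MHC class I genes 17 of 19 matched, with 5 ISRE (29.4%) and 2 GAS (11.8%). The chemokine list, whose genes were also high, had 2 ISRE and 2 GAS among 19 matched genes (10.5% each). No match to either motif was found in the 250 bases before the start site of Cxcl9, Ubd or Cd274. For skeletal muscle genes 12 of 16 matched, with 0 ISRE and 1 GAS. The ribosomal protein list, whose genes did not have high values, held the ISRE letters in 4 of 17 windows (23.5%). The 250 bases before the start site are printed for a guanylate-binding protein with an ISRE match, a chemokine with a distant ISRE match and the first of the 2 start sites of Irf1, which has a GAS match. Capitals mark the matched letters, 5′ to 3′ on the gene's strand.
Gbp2b, chr3:142594597-142594846, plus strand: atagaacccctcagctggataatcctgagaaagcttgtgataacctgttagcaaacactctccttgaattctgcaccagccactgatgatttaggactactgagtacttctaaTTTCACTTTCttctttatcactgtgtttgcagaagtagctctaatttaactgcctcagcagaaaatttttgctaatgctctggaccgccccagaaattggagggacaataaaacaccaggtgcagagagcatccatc
Cxcl10, chr5:92348890-92349139, minus strand: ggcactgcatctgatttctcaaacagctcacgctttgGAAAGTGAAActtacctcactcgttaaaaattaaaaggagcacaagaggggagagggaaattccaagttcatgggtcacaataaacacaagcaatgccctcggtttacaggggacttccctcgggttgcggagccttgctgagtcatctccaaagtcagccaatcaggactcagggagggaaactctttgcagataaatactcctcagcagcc
Irf1, chr11:53769764-53770013, plus strand: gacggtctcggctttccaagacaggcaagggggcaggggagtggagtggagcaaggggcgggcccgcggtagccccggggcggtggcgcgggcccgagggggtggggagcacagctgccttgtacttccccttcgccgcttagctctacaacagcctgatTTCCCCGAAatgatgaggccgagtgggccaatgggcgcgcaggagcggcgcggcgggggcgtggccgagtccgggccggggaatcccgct
The match in Gbp2b begins 137 bases before the start site, that in Cxcl10 213 bases before it and that in Irf1 90 bases before it. A match describes letters and not binding, which was not measured.

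Type I interferon response genes, which overlap in function with the list above, had smaller differences. All 30 lay above 0 with a median log2 fold change of 0.90, 24 had an unadjusted p under 0.05 in the higher direction and 0 in the lower, and 5 rose without control replicate 1. Groups overlapped for all 30. Zbp1, a sensor of unusual nucleic acids, had 17.5, 26.6, 33.5, 36.3 and 18.9 CPM in controls and 147, 121, 80.1, 162 and 32.2 CPM in knockouts. Only knockout replicate 5 fell within the control range, and the log2 fold change was 1.98 (adjusted p = 0.130, SE 0.37) with 10 libraries and 1.90 (adjusted p = 0.0406, SE 0.40) without control replicate 1. Herc6, the mouse ligase that attaches Isg15, was at 1.05 and Oasl2, an oligoadenylate synthetase-like protein, at 1.44, and both passed without control replicate 1 (adjusted p = 0.0406 and 0.0406). The receptor chains Ifnar1 and Ifnar2 were at 0.03 and 0.38, and classic members such as Isg15, Ifit1 and Mx1 at 1.02, 0.65 and 1.16, none of which passed in either fit.

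Antigen presentation genes had positive log2 fold changes throughout, with few calls. Of 19 MHC class I genes tested, all lay above 0 (median 0.86), 14 had an unadjusted p under 0.05 in the higher direction, and 0 rose without control replicate 1, while DESeq2 called 2 higher. Among the genes that make and load peptides, Tap1 and Tap2, which pump peptides into the endoplasmic reticulum, were at 1.43 and 1.08, Tapbp, which bridges them to class I, at 1.28, and Psmb8 and Psmb9, subunits of the immunoproteasome, at 1.36 and 1.40. The heavy chains H2-K1 and H2-D1 were at 0.48 and 0.48 and the light chain B2m at 0.25, all with an unadjusted p above 0.05. Of 9 class II genes tested, 8 had an unadjusted p under 0.05 in the higher direction (median 2.57), and 1, H2-Ob, rose without control replicate 1, whose 3.34 CPM exceeded 4 of the 5 knockouts, and DESeq2 called 1 higher. The authors' deposited table has Tapbp (adjusted p = 0.0172), Tap2 (0.0212), H2-DMb2 (0.00871) and H2-DMb1 (0.0411) past the threshold. The class II invariant chain Cd74 had 24.7, 34.3, 263, 158 and 30.7 CPM in controls and 735, 625, 202, 1537 and 64.0 CPM in knockouts. Control replicates 3 and 4 lay within the knockout range, and the log2 fold change of 2.57 (adjusted p = 0.291, SE 0.85) carried a wide SE.

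Most chemokine genes had higher values in knockouts, among them the ligands of Cxcr3, a chemokine receptor of T cells. Of 28 chemokine and cytokine genes tested, 19 had an unadjusted p under 0.05 in the higher direction and 0 in the lower (median log2 fold change 1.44). Without control replicate 1, 5 rose (against 2.86% of all genes), and in 6 all knockouts exceeded all controls (against 0.677%). Cxcl10 (chr5:92346638-92348889, minus strand) had 7.32, 7.42, 8.58, 10.6 and 6.83 CPM in controls and 29.8, 25.6, 15.7, 68.8 and 15.2 CPM in knockouts. Its groups did not overlap, with a log2 fold change of 1.87 (adjusted p = 0.130, SE 0.37) and of 1.87 (adjusted p = 0.0406, SE 0.40) without control replicate 1. Cxcl9 (chr5:92321347-92328079, minus strand), the neighbouring gene, had 27.4, 23.4, 58.1, 54.3 and 10.6 CPM and 159, 235, 117, 330.3 and 60.3 CPM. Knockout replicate 5 at 60.3 CPM stood just above control replicate 3 at 58.1 CPM. The log2 fold change was 2.32 (adjusted p = 0.157, SE 0.51), or 2.28 (adjusted p = 0.0575, SE 0.62) without control replicate 1. Cxcl9 passed by DESeq2 on all 10 libraries (adjusted p = 3.76e-04) and in the authors' deposited table (adjusted p = 1.88e-04). Cxcl11, the third ligand of the receptor, had 4.14, 3.37, 2.66, 2.64 and 1.76 CPM and 7.63, 8.76, 5.81, 14.4 and 6.05 CPM. The groups did not overlap, and its log2 fold change of 1.51 (adjusted p = 0.144, SE 0.32) passed without control replicate 1 (adjusted p = 0.0331). Ccl5, a chemokine made by activated T cells, had 1.75, 1.54, 2.17, 2.09 and 1.51 CPM in controls and 10.8, 14.4, 2.38, 39.8 and 2.12 CPM in knockouts. Replicates 3 and 5 of the knockouts were close to the controls. The log2 fold change was 2.87 (adjusted p = 0.189, SE 0.69), or 2.90 (adjusted p = 0.0605, SE 0.82) without control replicate 1. Ccl5 passed by DESeq2 on all 10 libraries (adjusted p = 6.61e-04) and in the authors' deposited table (adjusted p = 0.00110). Il33, an alarm cytokine, was at 1.14 and Tnf at 1.49, both with groups that did not overlap, and Il6 was at -0.17.

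Lymphocyte genes followed the same order of tumors. All 21 T cell markers lay above 0 (median log2 fold change 1.54), and 16 had an unadjusted p under 0.05 in the higher direction. Without control replicate 1, 5 rose and the median was 1.80. That library held the highest T cell sum of the controls. Low genes as a whole also moved up without it, with a median of 0.84 at 1 to 2 CPM. In bulk samples, more cells of a type and more RNA per cell cannot be told apart. The summed T cell markers had 101, 55.9, 75.2, 77.6 and 34.1 CPM in controls and 199, 190.3, 87.4, 508 and 68.5 CPM in knockouts. Knockout replicates 3 and 5 lay within the control range and the other 3 above it, and the part of T cell content in the interferon values was not tested. Cd8a, the coreceptor of killer T cells, was at 2.07, Cd4, that of helper T cells, at 1.14 and Foxp3, the factor of regulatory T cells, at 0.63. Of 18 cytotoxic lymphocyte genes, 9 had an unadjusted p under 0.05 in the higher direction (median 1.12) and 1, Tbx21, rose without control replicate 1. Within that list the receptor Klrk1 was at 1.87 and Nkg7, a granule protein, at 2.29, while the killing proteins Gzmb, Gzmc and Prf1 were at 0.65, -0.35 and 0.56 with an unadjusted p above 0.05. Of 13 checkpoint and exhaustion genes, 8 had an unadjusted p under 0.05 in the higher direction (median 0.96) and 2 rose without control replicate 1, Cd274 and Btla. Btla, an inhibitory receptor of lymphocytes, had 1.59, 1.16, 1.25, 1.10 and 0.603 CPM and 3.64, 2.46, 3.56, 9.49 and 2.72 CPM, without overlap. Pdcd1, which encodes PD-1, had 3.34, 2.02, 5.25, 6.21 and 1.51 CPM in controls and 20.1, 8.62, 3.83, 53.7 and 2.52 CPM in knockouts. Knockout replicates 3 and 5 lay within the control range, and the log2 fold change was 2.20 (adjusted p = 0.296, SE 0.74).

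B cell and plasma cell genes differed mainly through 1 tumor. Of 12 tested, 7 had an unadjusted p under 0.05 in the higher direction (median 2.17) and 2, Igha among them, rose without control replicate 1. The median was then 3.29. Summed over the list, controls had 50.8, 14.0, 17.3, 22.7 and 11.0 CPM in replicates 1 to 5, so the left-out library was the highest control. Igkc, the kappa light chain constant region, had 1.43, 0.868, 0.50, 1.59 and 0.955 CPM in controls and 19.7, 9.30, 3.83, 304 and 1.01 CPM in knockouts. Knockout replicate 4 alone exceeded the other 4 knockouts by more than an order of magnitude, and knockout replicate 5 lay within the controls. The log2 fold change of 5.89 (adjusted p = 0.189, SE 1.42) was 2.95 without knockout replicate 4. Mast cell genes had the same pattern, with Cma1, a chymase, at 2.39, 2.22, 3.33, 2.47 and 1.11 CPM in controls and 4.29, 7.12, 8.45, 35.9 and 2.12 CPM in knockouts. Of 8 mast cell and eosinophil genes, 4 had an unadjusted p under 0.05 in the higher direction and 1, Ms4a2, rose without control replicate 1. Of 11 neutrophil genes 3 were higher at that level, and of 11 dendritic cell genes 4, while 1 and 3 of them rose without control replicate 1. These medians also moved up when that library was left out. Mast cell and eosinophil genes went from 1.64 to 2.18, neutrophil genes from 0.85 to 1.35 and dendritic cell genes from 0.85 to 1.04.

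**Figure D3:**
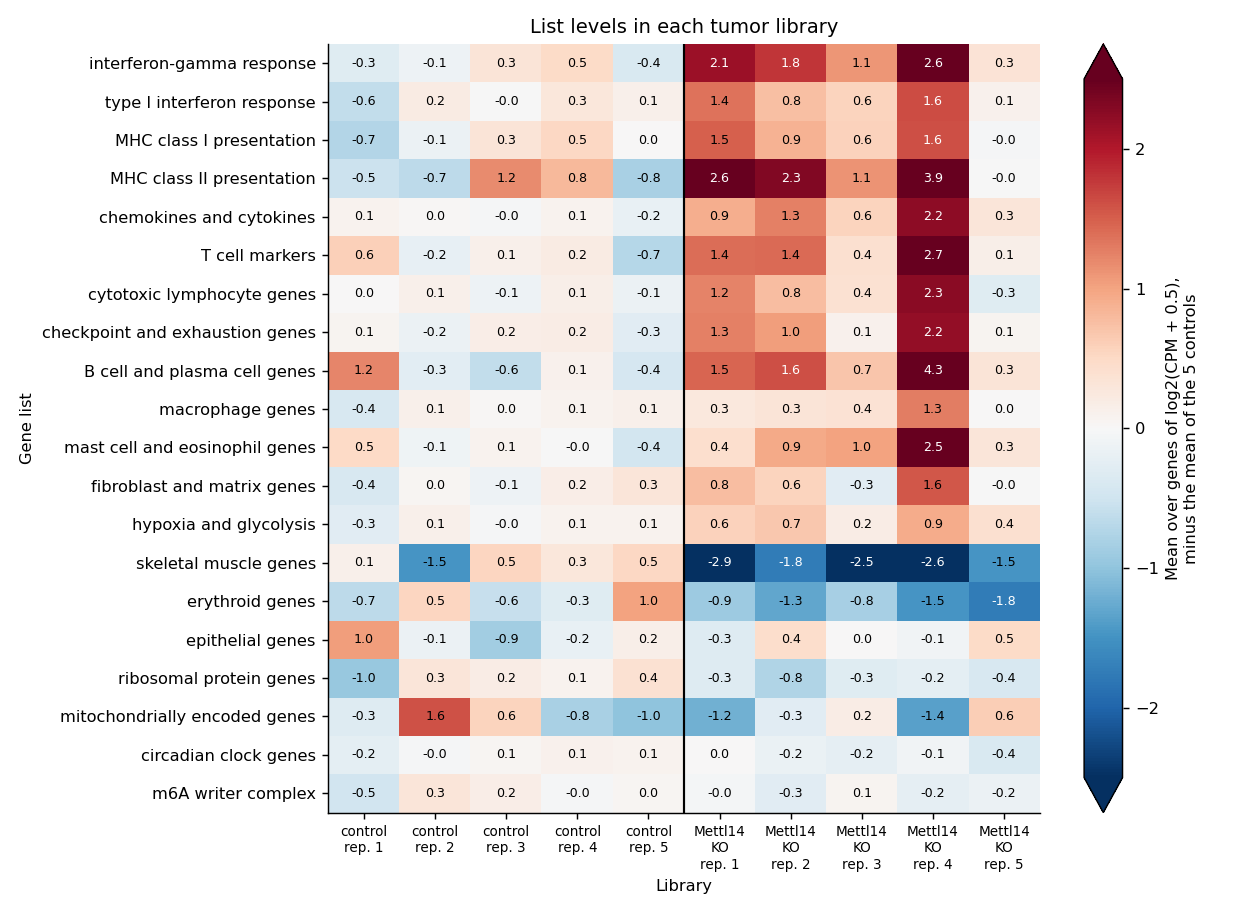
Level of 20 gene lists in each of the 10 tumor libraries, as the mean over the tested genes of log2(CPM + 0.5) minus the mean of the 5 controls (color scale and printed value, columns are libraries and rows are lists). Immune lists are highest in Mettl14 KO replicate 4 and near the control level in replicate 5, while the skeletal muscle row is at -1.47 or below in all 5 knockouts and at -1.48 in control replicate 2.

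Of 26 macrophage genes tested, 20 lay above 0, with a median log2 fold change of 0.33. At an unadjusted p under 0.05, 8 were higher (against 4.74% of all genes) and 1, Spp1, was lower (against 6.6%). In 4 genes all knockouts exceeded all controls (against 0.677%), and 4 rose without control replicate 1. Among general markers, Csf1r, the growth factor receptor of macrophages, was at 0.51, C1qa, a complement subunit, at 0.49, and Lyz2, a lysozyme, at 0.07. The 4 that rose without control replicate 1 were Nos2, Acod1, Hmox1 and Marco. Nos2, the inducible nitric oxide synthase, had 6.69, 6.36, 7.08, 6.71 and 6.68 CPM in controls and 37.1, 66.6, 9.64, 92.1 and 11.3 CPM in knockouts. All knockouts exceeded all controls, whose values spanned less than 1 CPM, and the log2 fold change was 2.64 (adjusted p = 0.130, SE 0.55), or 2.67 (adjusted p = 0.0494, SE 0.65) without control replicate 1. Acod1, the enzyme that makes itaconate, had 4.30, 4.72, 4.58, 8.14 and 2.96 CPM and 29.3, 33.8, 15.3, 96.5 and 8.87 CPM. These groups did not overlap, with knockout replicate 5 nearest to the controls, and the log2 fold change of 2.83 (adjusted p = 0.130, SE 0.55) passed without control replicate 1 (adjusted p = 0.0468). Hmox1, which breaks down heme, had 35.0, 33.5, 26.3, 41.4 and 50.4 CPM in controls and 61.0, 93.3, 199, 122 and 62.9 CPM in knockouts. Here knockout replicate 3, and not replicate 4, was highest, and the log2 fold change was 1.48 (adjusted p = 0.144, SE 0.31), and the gene passed without control replicate 1 (adjusted p = 0.0433). Lyve1 and Mrc1, markers of resident macrophages, were at -0.91 and -0.06 with overlapping groups. Marco, a scavenger receptor, passed without control replicate 1 at levels of 3.50 CPM and below in all 10 libraries.

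Genes of hypoxia and glycolysis were higher in a narrow range. All 23 genes tested lay above 0, with a median log2 fold change of 0.43, 12 had an unadjusted p under 0.05 in the higher direction, and 6 rose without control replicate 1. Hk2 (chr6:82725025-82774454, minus strand), a hexokinase of glycolysis, had 52.5, 65.3, 69.9, 74.9 and 69.4 CPM in controls and 118, 123, 104, 142 and 92.5 CPM in knockouts. All 5 knockouts exceeded all 5 controls, and the log2 fold change of 0.76 (adjusted p = 0.130, SE 0.13) had the smallest p of the genes that were higher and met the naming rule, with 0.72 (adjusted p = 0.0331, SE 0.13) without control replicate 1. Pfkp, a phosphofructokinase, had 47.0, 48.8, 43.6, 62.0 and 60.5 CPM and 115, 110.4, 88.2, 174 and 69.5 CPM. Its groups did not overlap, and it passed without control replicate 1 at a log2 fold change of 1.04 (adjusted p = 0.0406, SE 0.22). Pfkfb3, which makes an activator of that enzyme, was at 1.41 and P4ha2, a collagen prolyl hydroxylase, at 1.01. Genes of the lower steps had smaller values, with Ldha at 0.24, Gapdh at 0.26 and Eno1 at 0.18, none with an unadjusted p under 0.05. Car9, a hypoxia marker, was at 0.95 and Vegfa, an angiogenic factor, at 0.24, and neither passed in either fit. Atf3 (chr1:191170296-191218039, minus strand), an early stress factor, had 4.78, 3.18, 3.41, 3.96 and 3.82 CPM in controls and 11.7, 11.6, 8.32, 22.3 and 7.66 CPM in knockouts. Every knockout exceeded every control, with a log2 fold change of 1.63 (adjusted p = 0.130, SE 0.29) and of 1.76 (adjusted p = 0.0331, SE 0.29) without control replicate 1. It was the single higher gene of the 20 unfolded protein response genes at an unadjusted p under 0.05, and Hspa5, the chaperone that marks that response, was at -0.29.

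Skeletal muscle genes were the list with the lowest values. All 16 genes tested lay below 0, with a median log2 fold change of -2.70, 14 had an unadjusted p under 0.05 in the lower direction, and 11 fell without control replicate 1. In 7 genes all 5 knockouts were below all 5 controls, against 0.673% of all genes. The authors' deposited table has 13 of the list lower and 0 higher. A wider set of 37 muscle genes was gathered by symbol after values were seen. It repeats members of the list (Myh1, Myh2, Myh4, Myh7, Mylpf, Myl1, Tnnt3, Tnni2 and Actn3), so it is not independent of it. The median of this set was -1.10, with 20 lower and 0 higher at an unadjusted p under 0.05. Of its genes 4 lay above 0 (Sypl2, Tnni3, Myh6 and Tnnc1). Without control replicate 1, 11 of the 37 fell and 1, the heart troponin gene Tnni3, rose. The left-out library had 5.57 CPM of Tnni3, above every knockout (1.94 to 4.79 CPM), and the other controls had 0.301 to 1.16 CPM. With 10 libraries its log2 fold change was 0.97 with overlapping groups. Summed over the 17 listed genes, controls had 903, 339.8, 1580.3, 1156 and 1397 CPM and knockouts had 70.8, 146, 83.7, 102 and 288 CPM. The sums did not overlap, and control replicate 2 and knockout replicate 5 were the nearest. Ttn, the giant spring protein of the sarcomere, had 581, 237, 1094, 769.6 and 887 CPM in controls and 39.4, 76.6, 43.0, 50.0 and 195 CPM in knockouts and so weighed most in the sum. Myh1 (chr11:67200052-67224575, plus strand), a fast myosin heavy chain, had 18.6, 9.06, 28.1, 24.7 and 32.2 CPM in controls and 0.704, 2.74, 0.924, 1.57 and 4.23 CPM in knockouts. Control replicate 2 was the lowest control and still exceeded the highest knockout, replicate 5. The log2 fold change was -3.54 (adjusted p = 0.130, SE 0.50), the smallest p of all genes that met the naming rule, and -3.57 (adjusted p = 0.0331, SE 0.51) without control replicate 1. Neb (chr2:52136647-52378474, minus strand), the ruler of the thin filament, had 89.9, 46.2, 131, 88.7 and 89.9 CPM in controls and 16.2, 23.9, 16.0, 30.8 and 30.7 CPM in knockouts. The groups did not overlap, and the log2 fold changes were -1.97 (adjusted p = 0.130, SE 0.29) and -1.93 (adjusted p = 0.0331, SE 0.30). Acta1 (chr8:123891769-123894751, minus strand), skeletal alpha-actin, had 20.1, 6.65, 48.8, 64.0 and 79.4 CPM and 0.939, 1.23, 0.924, 0.863 and 6.55 CPM. Knockout replicate 5 at 6.55 CPM lay just below control replicate 2 at 6.65 CPM, and the log2 fold change was -4.42 (adjusted p = 0.130, SE 0.76), or -4.59 (adjusted p = 0.0406, SE 0.86) without control replicate 1. Myh2 and Xirp2, a fast myosin and an actin-binding protein of striated muscle, had log2 fold changes of -3.30 and -3.24 without overlap. Des, the muscle intermediate filament, counted among pericyte and smooth muscle genes, was at -1.72. Myh7, the slow myosin, was at -0.33 with overlapping groups. The labels do not state how the tumors were cut from the flank, and the part of attached host muscle in these values was not tested.

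Muscle promoters often hold a CArG box, the site of serum response factor. The CArG box occurred for 1.81% of 27025 genes in the same windows, and for 2 of the 12 muscle genes that matched. The 250 bases before the start site of Acta1 are printed because this gene had the lowest log2 fold change of the list, with the match, 73 bases before the start site, in capitals.
Acta1, chr8:123894776-123895025, minus strand: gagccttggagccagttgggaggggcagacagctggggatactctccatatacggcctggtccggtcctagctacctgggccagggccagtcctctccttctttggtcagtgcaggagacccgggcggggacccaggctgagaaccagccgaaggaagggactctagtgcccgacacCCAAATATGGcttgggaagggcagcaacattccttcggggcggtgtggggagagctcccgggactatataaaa

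**Figure D4:**
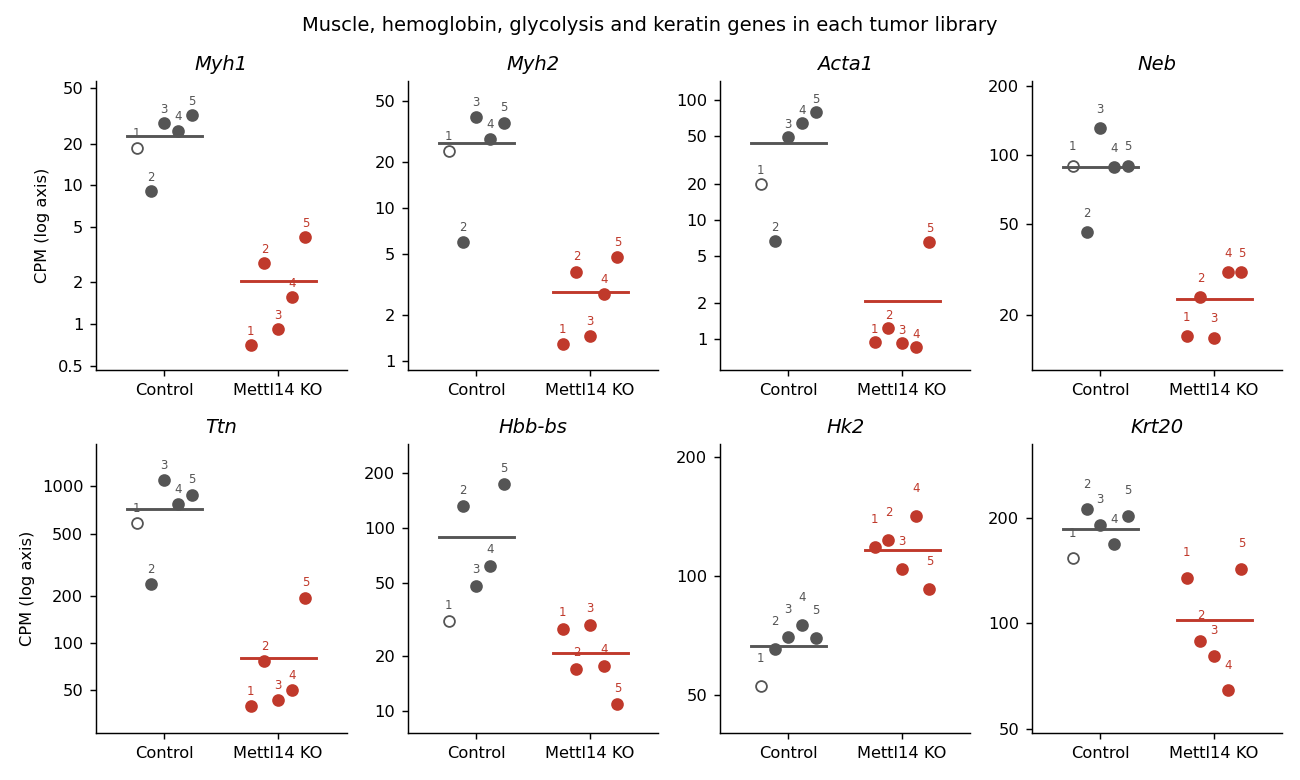
Level of 5 muscle genes, the hemoglobin gene Hbb-bs, the hexokinase gene Hk2 and the keratin gene Krt20 (CPM, log axis) in 5 control and 5 Mettl14 KO tumor libraries. Each numbered point is 1 library, horizontal lines are group means, and the open point is control replicate 1. The groups do not overlap in any of the 8 panels, with knockouts above controls for Hk2 and below for the other 7.

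Red blood cell genes were also lower. Of 6 erythroid genes tested, 5 had an unadjusted p under 0.05 in the lower direction (median log2 fold change -1.85) and 4 fell without control replicate 1. Hbb-bs, a beta-globin gene, had 30.9, 132, 48.2, 62.2 and 174 CPM in controls and 28.1, 17.0, 29.6, 17.6 and 10.9 CPM in knockouts. The groups met at 30.9 and 29.6 CPM without overlap, and the log2 fold change was -2.13 (adjusted p = 0.130, SE 0.43), or -2.33 (adjusted p = 0.0331, SE 0.39) without control replicate 1. The hemoglobin genes are near-identical copies, so their counts are uncertain one by one. Of 14 endothelial genes, the vessel wall markers, 3 were lower and 0 higher at an unadjusted p under 0.05, with a median of -0.04, and Cdh5, the cadherin of vessel walls, was at -0.46 and fell without control replicate 1 (adjusted p = 0.0461).

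Cells of the tumor bed and the cancer cell itself were checked with their own lists. Of 25 fibroblast and matrix genes, 11 had an unadjusted p under 0.05 in the higher direction and 0 in the lower (median log2 fold change 0.62), and 0 passed without control replicate 1. Col1a1, the main collagen chain, had 129, 151, 156, 304 and 395 CPM in controls and 1623, 862, 207, 979 and 217 CPM in knockouts. Knockout replicates 3 and 5 lay within the control range and the other 3 above it. Of 16 matrix proteases and inhibitors, 4 were higher at that level, and Timp3, a protease inhibitor, and Plau, urokinase, rose without control replicate 1 (adjusted p = 0.0476 and 0.0460). Of 15 epithelial genes, 0 were higher and 2 lower, while 8 lay above 0. Their median was 0.03 with 10 libraries and 0.42 without control replicate 1, so the list as a whole was not lower. Epithelial markers were sparse in these carcinoma tumors: Epcam, Cdh1 and Vil1 stayed below 10 CPM in all 10 libraries. Krt20, a keratin of colon epithelium, was the most abundant of the list, with 154, 213, 192, 169 and 203 CPM in controls and 135, 89.1, 80.9, 64.5 and 144 CPM in knockouts. All knockouts were below all controls, the nearest being knockout replicate 5 and control replicate 1, and the log2 fold change of -0.89 (adjusted p = 0.196, SE 0.22) passed without control replicate 1 (adjusted p = 0.0440). Cell cycle genes (32 tested, 0 higher and 2 lower), Wnt targets (11 tested, 2 higher and 1 lower), p53 targets (17 tested, 1 and 1) and TGF-beta and mesenchymal genes (16 tested, 0 and 0) had medians between -0.15 and -0.03.

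Ribosomal protein genes, which encode the protein part of the ribosome, had negative log2 fold changes. All 24 listed genes lay below 0, with a median log2 fold change of -0.48, 11 had an unadjusted p under 0.05 in the lower direction, 14 fell without control replicate 1 and DESeq2 called 0. All 79 ribosomal protein genes found by symbol gave a median of -0.49, with 37 lower at an unadjusted p under 0.05. This wider set was gathered after values were seen and repeats genes of the list, so it is not independent of it. Rpl5, a protein of the large subunit, had 450.3, 1151, 915, 726 and 861 CPM in controls and 547, 380.3, 521, 576 and 589.7 CPM in knockouts. Control replicate 1 lay inside the knockout range and the other 4 controls lay above it, and the log2 fold change was -0.68 (adjusted p = 0.250, SE 0.20), or -0.81 (adjusted p = 0.0397, SE 0.16) without control replicate 1. Abundant genes as a whole were lower, with a median of -0.20 at 500 CPM and above and, without control replicate 1, -0.27, and the part of this trend in the ribosomal values was not tested. The authors' deposited table has 0 genes of the list at an adjusted p under 0.05. Of 16 circadian clock genes, 3 were lower and 0 higher at an unadjusted p under 0.05, and the same number fell without control replicate 1: the repressors Per2 and Cry1 at -0.71 and -0.82 and Nr1d2 at -0.56. Cry1 had 8.12, 20.5, 23.7, 14.7 and 16.7 CPM in controls and 8.98, 8.89, 11.1, 10.7 and 9.07 CPM in knockouts. The other 4 controls lay above every knockout and control replicate 1 below every one, and the labels do not state the hour of collection. Of 10 mitochondrially encoded genes 1 was lower, mt-Nd4, and of 20 nuclear oxidative phosphorylation genes 1, Ndufa4, against 6.6% of all genes. The mitochondrial genes had a median of -0.63 with 0 of 10 above 0. The oxidative phosphorylation genes had a median of -0.19 with 1 of 20 above 0.

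Most of the remaining lists held few genes at an unadjusted p under 0.05, and their medians are given first with 10 libraries and then without control replicate 1. Adipocyte genes had 1 higher and 1 lower of 8 (median log2 fold change 0.27, then 0.96), and the higher one, Lpl, the lipoprotein lipase, was at 2.26. Neural and Schwann cell genes had 2 higher of 9 (0.20, then 0.96), pericyte and smooth muscle genes 1 higher and 1 lower of 9 (0.07, then 0.25), and immediate early genes 2 higher and 1 lower of 22 (0.05, then -0.02). Oxidative stress and heme genes had 1 higher of 18 (0.03, then -0.02), which was Hmox1, and keratinocyte genes 0 of 7 (0.03, then 1.2). Cholesterol and lipid synthesis genes had 0 higher and 0 lower of 18 (-0.12, then -0.20), heat shock genes 0 of 14 (-0.17, then -0.19), amino acid stress genes 1 lower of 18 (-0.18, then -0.23) and histone genes 1 lower of 10 (-0.38, then -0.56). Without control replicate 1, 2 of the 10 histone genes fell. All 53 clustered histone genes tested, gathered by symbol after values were seen, had a median of -0.46, with 14 lower and 0 higher at an unadjusted p under 0.05, and 12 fell without control replicate 1.

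A last comparison set the Mettl14 knockouts against the Mettl3 knockouts in 1 fit of 15 libraries, to ask where tumors labelled for either partner of the methyltransferase differ. No gene of 24566 passed (0%, smallest adjusted p 0.212). At an unadjusted p under 0.05, 1975 genes were higher in Mettl14 knockouts (8.04%) and 1177 were lower (4.79%), and DESeq2 called 59. The interferon genes were close: of 34 interferon-gamma response genes 2 were higher and 0 lower, with a median of 0.27, and Gbp2b had 966, 538, 606, 844 and 751 CPM in the Mettl3 knockouts, a range that lay within that of the Mettl14 knockouts. Its log2 difference was 0.19 (SE 0.38, unadjusted p = 0.622, adjusted p = 0.733). T cell markers had 0 of 21 at that level in either direction. A p that misses the threshold does not show that the knockouts act alike.

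Skeletal muscle genes differed most, with all 16 lower in the Mettl14 knockouts at an unadjusted p under 0.05 (median -3.19). Myh1 had 7.71, 7.45, 9.82, 37.5 and 93.7 CPM in the Mettl3 knockouts, where replicates 4 and 5 stood above the rest, and every one of them exceeded every Mettl14 knockout. The log2 difference was -3.99 (SE 0.73, unadjusted p = 4.31e-05, adjusted p = 0.212). In the other direction, 19 of 23 hypoxia and glycolysis genes were higher in the Mettl14 knockouts at an unadjusted p under 0.05 (median 0.67). So were 14 of 20 unfolded protein response genes (0.46), 11 of 18 oxidative stress and heme genes (0.49), 9 of 25 fibroblast and matrix genes (0.62) and 8 of 17 p53 targets (0.57), against 8.04% of all genes. These lists were not alone, since 8 of 14 heat shock genes (0.44) and 7 of 16 circadian clock genes (0.59) were also higher. Ribosomal protein genes had a median of 0.43 with 2 of 24 higher, and the median of the 21555 genes tested against control was 0.13. Keratinocyte (-0.93), epithelial (-0.81) and adipocyte genes (-0.60) had medians below 0. Ero1l, an oxidase that helps fold proteins and is raised by hypoxia, had 188, 224, 173, 222 and 203 CPM in Mettl14 knockouts and 88.6, 124, 107, 123 and 97.1 CPM in Mettl3 knockouts. The knockouts did not overlap, and the log2 difference was 0.90 (SE 0.16, unadjusted p = 3.02e-05, adjusted p = 0.212). Cd163, a scavenger receptor of macrophages, had 20.7, 51.7, 35.8, 44.5 and 28.8 CPM and 12.7, 13.9, 16.4, 9.90 and 17.8 CPM. All Mettl14 knockouts lay above all Mettl3 knockouts, with a log2 difference of 1.35 (SE 0.24, unadjusted p = 3.84e-05, adjusted p = 0.212), while Mettl14 knockouts and controls overlapped. Tnc, the matrix protein tenascin, had 206, 272, 147, 249 and 217 CPM and 92.0, 87.2, 119, 49.3 and 99.0 CPM, again without overlap and with a log2 difference of 1.28 (SE 0.23, unadjusted p = 4.10e-05, adjusted p = 0.212). Hmox1 was higher by 1.68 (SE 0.34, unadjusted p = 1.08e-04, adjusted p = 0.222). Of the Mettl3 knockouts 60.2% to 78.0% of unique alignments lay outside genes, against 53.6% to 65.9% in the Mettl14 knockouts. With this share as a covariate 0 genes passed, the same count as without it. The part of this share in the differences of the lists was not tested.

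**Figure D5:**
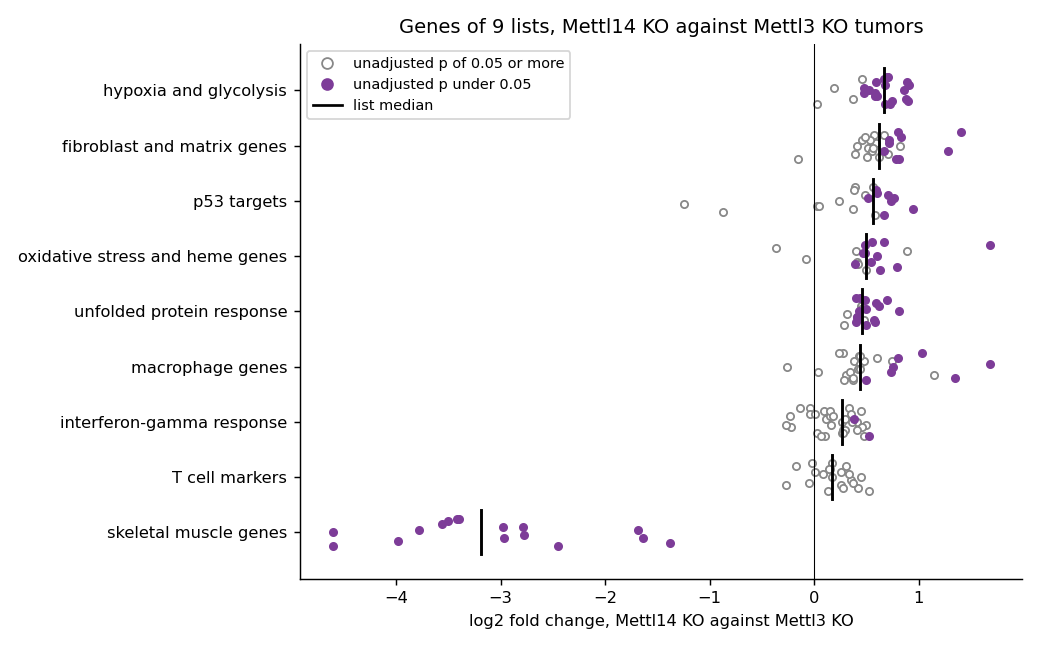
Log2 fold change in Mettl14 KO against Mettl3 KO tumors (horizontal axis, 5 libraries per group) for the genes of 9 lists, 1 point per gene. Filled points have an unadjusted p under 0.05 and black bars are list medians. Muscle genes lie at the left with a median of -3.19, hypoxia and glycolysis genes at the right with a median of 0.67, and T cell markers around 0.17 with no filled point.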

How the data were processed

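RNA of 15 tumors was sequenced as 75 nt single-end reads (ribosomal depletion and poly(A) selection are both named in the labels' protocols), and 10 libraries entered the main comparison. Per the submitters' processing notes, reads were processed with cutadapt 1.18, HISAT2 2.1.0, HTSeq 0.11.2 and DESeq2 on mm10. Neither the annotation release nor the strand setting is stated there, so overlapping and antisense genes cannot be told apart. The deposited table holds raw read counts per gene for 54752 genes, and the lines that name no gene were left out of library sizes. The authors' deposited table of this comparison holds, per the file headers, log2 fold changes with SE, a test score, p-values and a mean signal of scaled counts. Its fold changes and p-values were copied and not used to pick genes, and its score and signal columns were not needed.

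Genes were kept with filterByExpr in edgeR 4.0.16 (minimum count 10, R 4.3.3), scaled by TMM and tested with the robust quasi-likelihood test and Benjamini-Hochberg adjustment at 0.05. No replicate block was used. SE is the log2 fold change divided by the square root of F. Levels are CPM on the TMM scale of 15 libraries. Gene positions are those of GENCODE on mm10. Alternatives included DESeq2 1.42.0, limma 3.58.1, other scalings and filters, and leaving out each library.

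The comparison and the 43 gene lists (728 of 731 entries found) were chosen with earlier results of these data known. The genes named were Mettl14, Mettl3, Mettl4, Wtap, Irf1, Ifng, Cxcl9, Cxcl10 and Ccl5, up to 12 per direction among genes past the threshold averaging 1 CPM or more, with each knockout on 1 side of the control mean (filled to 5 by p where fewer passed), and 2 of smallest p per list (up to 4 where they passed). Against Mettl3 knockouts up to 8 per direction were named in the same way. Other genes named, and the same choice without control replicate 1, were added after their values were seen. All 20 pairs of replicates differed by more than sampling noise. Some genes that the naming rule picks are not reported here.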

Additional observations from a re-analysis of the deposited data

Results flagged for a closer look

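Of 238 groups of 5 libraries checked on log2(CPM + 0.5), or on the share itself for library properties, 23 had a highest or lowest library whose gap to the nearest exceeded 0.71 of the group's range. Chance gives about 1 in 20. Control replicate 1 had 78.6% of its unique alignments outside genes, far above the other controls.

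The same control library was far below the other 4 for the m6A subunits Mettl3 (13.2 CPM) and Rbm15 (95.3 CPM), the receptor Tgfbr2 (62.4 CPM), the cyclin Ccnb1 (36.0 CPM), the clock gene Per2 (26.9 CPM) and the histones Hist1h1c (89.3 CPM) and Hist1h3b (40.4 CPM). It was far above them for the low genes Krt14 (3.34 CPM), Igha and Ighd (1.75 CPM each), Olfr464 (4.14 CPM) and Ubash3a (6.53 CPM).

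Control replicate 2 stood apart for Mettl14, at 89.5 CPM above the others, and for the muscle genes Myh2 (5.98 CPM) and Tnnt3 (3.28 CPM), below the others. Control replicate 5 was low for the T cell kinase Lck, at 3.62 CPM. Among knockouts, replicate 4 was high for Btla (9.49 CPM), the mast cell tryptase Tpsb2 (56.0 CPM) and the death receptor Fas (16.9 CPM). Knockout replicate 2 was low for Rpl5 (380.3 CPM), replicate 3 stood apart for Fam50a (33.7 CPM) and replicate 5 was high for Acta1 (6.55 CPM).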

How the results depend on the processing

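Over 26 alternatives (22 planned and 4 chosen after seeing the data), the count of genes past the threshold against control was 0 with 10 libraries and moved with the tool and with the libraries. The count was 47 with no filter, 17 with voom and sample weights, 50 with all 15 libraries in 1 fit, 271 by DESeq2, and 310 by DESeq2 on 15 libraries. An edgeR fit with the share of reads outside genes as a covariate called 0 (smallest adjusted p 0.0840). Leaving out 1 library gave 0 to 1054, with 1054 without control replicate 1, 148 without Mettl14 KO replicate 5 and 6 without control replicate 2. DESeq2 without control replicate 1 called 4387, and voom without it called 0 (smallest adjusted p 0.0506). The cause of these differences was not tested. Against Mettl3 knockouts DESeq2 called 59 genes, voom with sample weights 6778, and leaving out 1 library 0 to 1. With the replicate block 14 genes passed, 12 higher and 2 lower. The replicate numbers do not pair the samples: deviations of same-numbered libraries correlated at -0.749, -0.162, 0.228, 0.232 and -0.407. A covariate built from the muscle genes themselves turned Myh2 to 0.18, Des to 0.29, Krt18 to 0.25, Tnnt3 to 0.56, Myl1 to 0.040, Acta1 to 0.23, Ckm to 0.89, Atp2a1 to 0.77, Mylpf to 0.37 and Fhl1 to 0.14 (log2). The muscle sums did not overlap between the groups, so this covariate cannot be separated from the group, and nothing is concluded from these values. Trp63, at -0.38, was 0.22 by voom, 0.41 with sample weights, 0.0068 with the block, 0.32 by DESeq2 without control replicate 1, 0.43 by voom without control replicate 1, and -0.63 to 0.46 leaving out 1 library. Cd163, at -0.13, was 0.046 on library totals and -0.31 to 0.018 leaving out 1 library, and Fam50a was -0.025 by DESeq2 without control replicate 1. Of the other values for single genes, 2662 kept their direction and side of the threshold and 339 gained the threshold. The median of all genes was -0.09 under TMM scaling, -0.08 under RLE and 0.07 on library totals. Control replicate 1 had the fewest reads on genes of the 10 libraries, which limits what it can show for low genes. It nonetheless had reads on the most genes, 45882 against 34402 to 43885 in the rest of the 10.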
